A study of Mus musculus with 10 samples.

Results

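The short internal exons of expressed genes were examined in maps of N6-methyladenosine (m6A), the most abundant internal modification of messenger RNA. An exon was taken when it was neither exon 1 nor the highest-numbered exon of its gene and held 4 windows or fewer. Its gene had to have at least 5 exons and a mean of at least 1 RPKM (reads per kilobase of transcript, scaled to library size) over the WT inputs, and the guttman:linc noncoding transcripts were left out. This gave 85219 exons with 236475 windows in 8413 genes, of 228402 exons with 1510223 windows in 30419 genes in all. Of these exons 4065 held 1 window, 29135 held 2, 33936 held 3 and 18083 held 4. A gene held a median of 8 such exons and at most 89. A window spanned a median of 49.3 bases in 2165 single-exon genes, so 4 windows correspond to about 197 bases. They were compared with 11969 internal exons of 5 or more windows and with 16886 outer exons, that is exon 1 and the highest-numbered exon, of the same genes.

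m6A is written while RNA is being made by a complex of METTL3, the catalytic subunit, and METTL14, and is read by proteins such as those of the YTH family. It is known to lie mostly in long internal exons, around stop codons and in 3′ untranslated regions. Exon junction complexes, which splicing leaves a little upstream of each exon-exon junction, are known to keep the methyltransferase away from nearby RNA, and a short internal exon has junctions close by on both sides.

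RNA came from J-1 mouse embryonic stem (ES) cells in feeder-free culture. Fragmented RNA was precipitated with an antibody against m6A (IP) and paired with unprecipitated RNA (input), in 10 libraries or 5 pairs. The first pair had no stated genotype, 2 pairs were labelled Mettl3 wild type (WT) and 2 pairs Mettl3 knockout (KO). All groups share the line. Nothing in the labels tells where Mettl3 was altered, whether the KO pairs came from 1 clone, or whether replicates were separate cultures, so p-values cover a spread between libraries that could be technical only.

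Mettl3 had a mean input coverage of 12.9 in the first pair, 4.79 and 4.67 in the WT pairs and 3.14 and 3.38 in the KO pairs. It was lower in both KO inputs than in both WT inputs and was still covered in them. The 10 ES cell markers lay between 39.4 and 1833 RPKM, and 13 of 18 markers of other cell types lay under 1 RPKM. The rest were neural Tubb3 (21.9 RPKM) and Neurod1 (5.07), trophectodermal Krt8 (4.44), fibroblast Thy1 (2.76) and mesodermal Eomes (1.52). The first pair stood apart. Across the 38541 short internal exons whose inputs averaged a coverage of 5 or more, its log2 input correlated at 0.34 to 0.37 with the other inputs, which correlated at 0.94 to 0.97 with each other. The IP libraries were unequally filled. The share of short internal exons with no IP signal at all was 2.68% in the first pair, 19.1 and 49.6% in WT and 62.6 and 49.4% in KO, while the share of them with no input was between 1.11 and 2.35% in every pair. Depth is unknown as a read number, since the files hold scaled coverage.

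Short internal exons carried much less of the IP signal than of the input signal in each of the 5 pairs. In the first pair they held 36.5% of the input signal of their genes and 13.3% of the IP signal. In WT they held 33.8 and 32.3% of the input and 8.43 and 7.05% of the IP. In KO they held 32.2 and 33.5% of the input and 9.87 and 10.7% of the IP. The input shares of the 5 pairs and their IP shares do not overlap, and within the IP both WT libraries were the lowest and the first library the highest. On the log2 scale the ratio of IP share to input share was −1.46 in the first pair, −2.003 and −2.19 in WT and −1.70 and −1.65 in KO, with a mean of −1.80 ± 0.294 (SD, n = 5). An exact two-sided sign-flip permutation test gave p = 0.0625, the smallest that 5 pairs can give. A share is relative, so a low share here stands against a high one in other exons of the same genes.

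**Figure D1:**
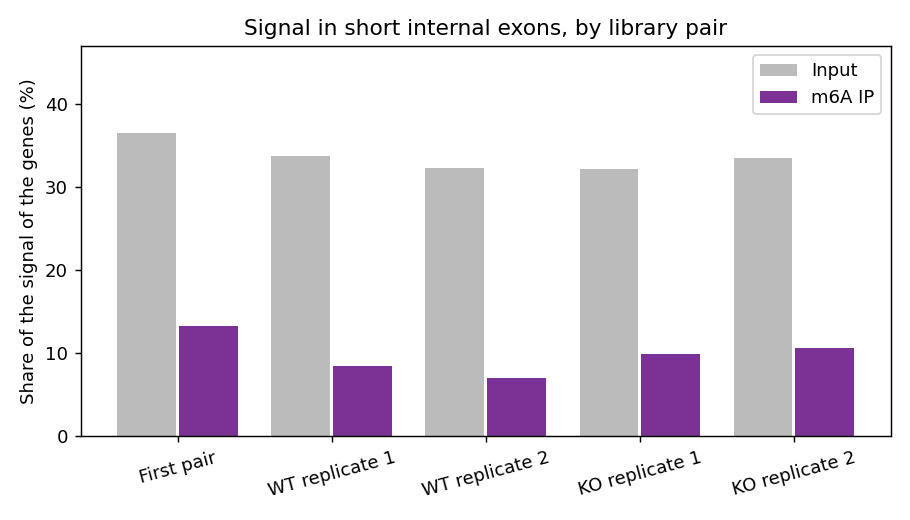
Bars show the percent of the summed signal of the genes that fell in short internal exons, in the input (grey) and the m6A IP (purple) of each of the 5 pairs, with 1 library per bar and no error bar. Every IP bar, between 7.05 and 13.3%, is below every input bar, between 32.2 and 36.5%.

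The depletion was seen gene by gene as well as in the sum. Among 4172 genes with at least 3 short internal exons whose inputs averaged 5 or more, the IP share was below the input share in 86.5% of genes in the first pair, 92.0 and 90.2% in WT, and 84.9 and 87.0% in KO. In 3019 of these genes (72.4%) it was below in all 5 pairs, and in 121 (2.90%) it was above in all 5. Just 3 genes had a ratio of at least 2 in every pair, and they are named because of these values. Ppp1r2, an inhibitor of protein phosphatase 1, had ratios of 3.32, 3.58, 4.77, 3.20 and 4.46 in the first, WT 1, WT 2, KO 1 and KO 2 pairs, over 4 short internal exons. Ptms, which encodes the acidic nuclear protein parathymosin, had 2.21, 3.18, 2.87, 3.51 and 4.43 over 3 exons. Aurkb, the kinase of the chromosomal passenger complex, had 2.40, 2.17, 2.42, 2.28 and 2.17 over 6 exons.

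Long internal exons, taken as a whole, and outer exons of the same genes went the opposite way. Internal exons of 5 or more windows had log2 ratios of 0.33 in the first pair, 0.50 and 0.57 in WT and 0.48 and 0.59 in KO, while outer exons had 0.50, then 0.46 and 0.43, then 0.39 and 0.38. Both classes were above 0 and short internal exons below 0 in every pair. The 9302 long internal exons of 5 to 8 windows were below 0 like the short ones, with −1.07 in the first pair, −0.93 and −0.92 in WT, −0.91 and −0.80 in KO. The 2667 of 9 or more windows had 1.17, then 1.58 and 1.65, then 1.51 and 1.64, and the positive value of the whole class comes from these. Short minus long internal exons was −2.30 ± 0.364 (SD, n = 5, exact sign-flip permutation p = 0.0625). Short internal minus outer exons was −2.23 ± 0.291 (SD, n = 5, exact sign-flip permutation p = 0.0625).

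The ratio changed with exon length in a steep step. For exons of 1, 2, 3 and 4 windows it ranged over the 5 pairs from −1.97 to −1.29, −2.10 to −1.40, −2.31 to −1.48 and −2.11 to −1.46. Length within the class made little difference, with 3 windows the lowest in each pair. At 6 windows the range was −1.09 to −0.86, and at 7 to 8 windows it was −0.36 in the first pair and 0.28 to 0.41 in the other 4. The sign therefore turned between 6 and 8 windows in WT and KO, and above 8 windows in the first pair. From 9 to 12 windows the ratio was 0.70 to 1.07, from 13 to 20 it was 1.45 to 2.12, and over 40 windows it was 0.89 to 1.41. Exons of 13 to 20 windows had the highest ratio of these length classes in all 5 pairs.

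**Figure D2:**
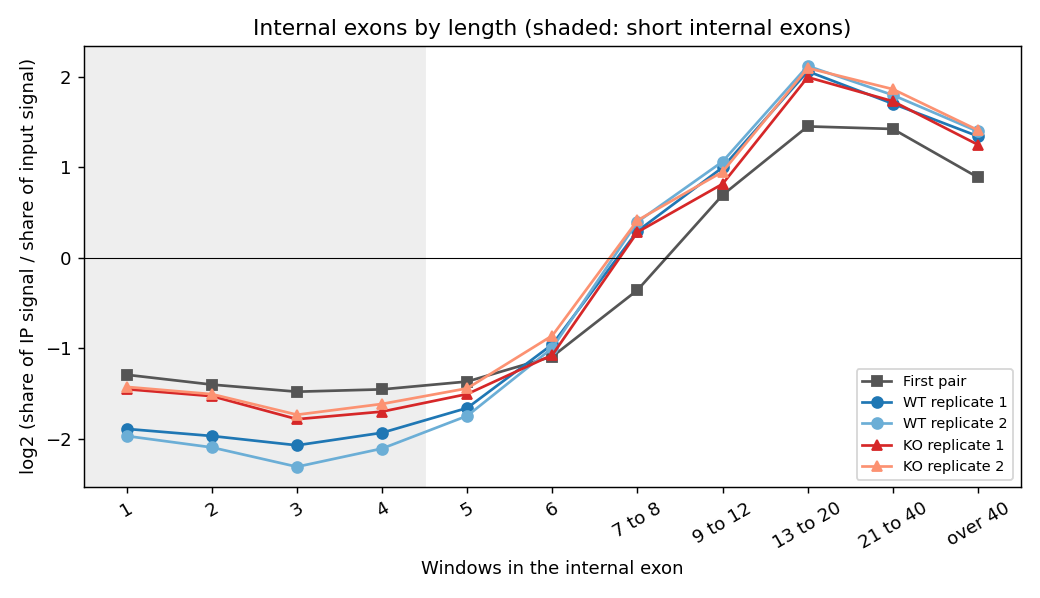
The log2 ratio of the share of IP signal to the share of input signal is plotted against the number of windows in the internal exon, with 1 line per pair and the short internal exons shaded. All lines are at or below −1.29 in the shaded part, cross 0 between 6 and 12 windows and are highest at 13 to 20 windows, at 1.45 in the first pair and 2.00 to 2.12 in the others.

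The exons at the limits of the rule lay on the same side of 0. Exons of 4 windows, just inside, had ratios of −1.46 in the first pair, −1.94 and −2.11 in WT and −1.70 and −1.62 in KO, while exons of 5 windows, just outside, had −1.37, −1.66, −1.75, −1.51 and −1.44. The 1474 exons in genes of 1 to 1.1 RPKM had −2.37, −2.92, −3.11, −2.91 and −2.92, and the 1513 in genes of 0.9 to 1 RPKM had −1.90, −2.69, −2.84, −2.10 and −2.44. Both sides of each limit were below 0 in all 5 pairs, and at each limit the inner side was the lower one in all 5.

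Within long internal exons the ratio was lowest at the edges. In exons of 9 or more windows the window at either edge had a log2 ratio of 0.14 to 0.42 over the 5 pairs. The next windows inward had 0.45 to 0.86, 0.77 to 1.32 and 1.08 to 1.73, and the fifth window had 1.38 to 2.01. The ratio thus rose with each step from the edge through the fifth window in every pair. Even these edge windows lay above short internal exons, where exons of 4 windows had −2.16 to −1.43 in the first window from the 5′ end and −1.95 to −1.45 in the last. In the 4 WT and KO pairs the ratio was higher in the last window than in the first, by amounts small beside the distance from 0, and in the first pair it was lower (−1.43 against −1.45).

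**Figure D3:**
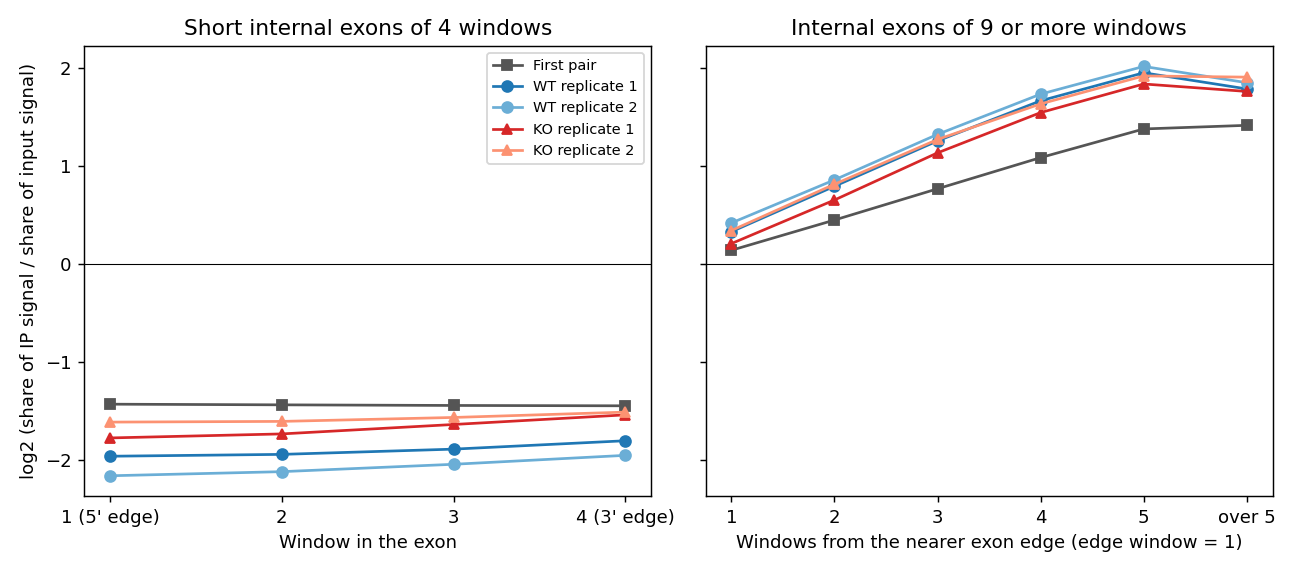
Both panels plot the log2 ratio of IP share to input share by window, with 1 line per pair. The left panel runs from the 5′ to the 3′ window of short internal exons of 4 windows and stays between −2.16 and −1.43, and the right panel runs inward from the nearer edge of internal exons of 9 or more windows and rises from 0.14 to 0.42 at the edge to 1.38 to 2.01 at the fifth window.

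Position in the gene was read through the strand. The exon numbers follow the genome and not the transcript: in 3408 genes of the plus strand the highest-numbered exon was longer than exon 1 in 92.1%, with medians of 23 and 4 windows, and in 3333 genes of the minus strand in 5.73%, with medians of 4 and 22 windows. Strand was known for 6741 genes of 8443 that met the rule on genes, with 68667 short internal exons. The exon next to the 3′ outer exon had ratios of −1.31 in the first pair, −1.77 and −1.97 in WT, −1.51 and −1.46 in KO. The exon next to the 5′ outer exon had −1.26, −1.87, −1.98, −1.52 and −1.42. Other short internal exons had −1.50, −2.08, −2.28, −1.78 and −1.72. Both near-end positions were less depleted in all 5 pairs, by 0.27 ± 0.049 next to the 3′ outer exon and by 0.26 ± 0.039 next to the 5′ outer exon (SD, n = 5, exact sign-flip permutation p = 0.0625 for each). Both remained far below 0. The lowest place in WT and KO was the fifth exon from the 3′ end, at −2.21 and −2.48 in WT and −1.96 and −1.90 in the KO pairs.

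**Figure D4:**
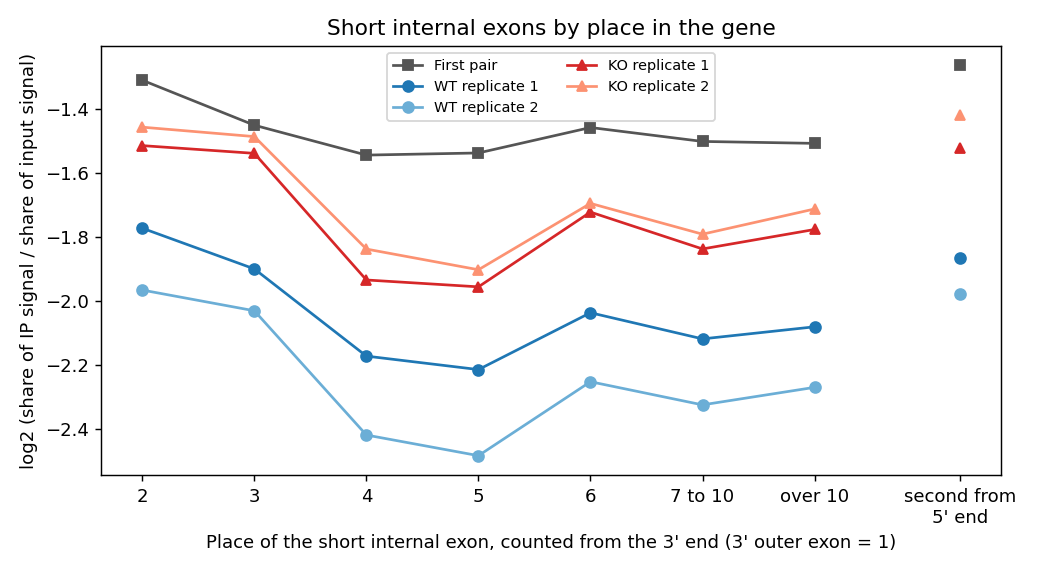
The log2 ratio of IP share to input share of short internal exons is plotted against place counted from the 3′ end of the gene, where the 3′ outer exon would be 1, with exons second from the 5′ end set apart on the right and 1 line per pair. Every point lies between −2.48 and −1.26, and the places nearest either end are higher than the fifth place in every pair.

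Short exons at the ends of genes were less depleted than short internal ones. The 285 3′ outer exons of 4 or fewer windows had ratios of −1.08 in the first pair, −1.20 and −1.33 in WT, −1.23 and −0.97 in KO. They exceeded short internal exons by 0.64 ± 0.210 (SD, n = 5, exact sign-flip permutation p = 0.0625). The 3562 short 5′ outer exons had −0.56, then −0.38 and −0.054 in WT, then 0.91 and 0.75 in KO. These were above short internal exons by 1.94 ± 0.686 (SD, n = 5, exact sign-flip permutation p = 0.0625), and in KO they were above 0.

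Single exons were measured by the winscore. This deposited log2 value sets a window's IP over its gene's median IP against the same ratio in the input, with 1 added to each term, and it was averaged over the windows of an exon. Its zero is the gene's median window. Short internal exons hold 36.1% of the windows of these genes and thus take part in setting that zero. Over the 75810 whose inputs averaged 1 or more the median was −0.036 in the first pair, −0.057 and 0.15 in WT, 0.32 and 0.15 in KO. The middle 90% of the better covered exons ran from −1.01 to 0.85 in the first pair and from −2.10 to 2.94 in KO 1, the narrowest and the widest spread.

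Within a gene, short internal exons had lower winscores than long internal ones. The median difference over 4868 genes was −0.23 in the first pair, −0.56 and −0.60 in WT and −0.35 and −0.51 in KO. It was negative in 64.0 to 75.9% of genes. Against the exon at the 3′ end, by strand, the median difference over 6523 genes was −0.50, then −0.99 and −0.98, then −0.58 and −0.70. Against the exon at the 5′ end, over 4477 genes, it was −0.54, then −1.07 and −1.43, then −1.50 and −1.67. The median difference over genes was negative in each pair against each of these kinds of exon. For the long internal exons it averaged −0.45 (n = 5, exact sign-flip permutation p = 0.0625), and against the highest-numbered exon, whichever end it is, −0.99 over 6828 genes (n = 5, exact sign-flip permutation p = 0.0625).

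Tested one by one over the 5 pairs, 7773 of the 75810 short internal exons (10.3%) had a winscore above 0 and 5612 (7.40%) below 0 (limma, Benjamini-Hochberg adjusted over 110174 exons, threshold 0.05). Of all exons tested 18.2% were above and 6.62% below. The share called above their gene's median window was thus smaller than that background, and the share called below was somewhat larger. The 75810 exons are themselves most of the 110174, so that background is drawn toward the class. The split into above and below follows the choice of zero. With the gene's mean signal in place of its median, 1584 short internal exons were called above and 47626 below (limma), against 7.59% and 53.5% of all exons. With each library centred on its median winscore 5439 (7.17%) were called above and 9162 (12.1%) below (limma), against 14.2% and 10.8% of all exons. Leaving out any WT or KO library lowered the counts, to between 2968 and 5086 above and between 2301 and 4858 below, while the share of all exons fell to between 9.83 and 13.8% above and between 2.77 and 5.65% below. The lowest counts came without WT 2.

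Of the exons called below 0, 3905 had an input coverage of at least 5 and were negative in all 5 pairs. The lowest was exon 3 of Ubl5, a ubiquitin-like protein of the splicing machinery. Its winscore was −2.62 in the first pair, −5.12 and −5.92 in WT and −4.09 and −4.95 in KO (limma adjusted p = 0.000725). The exon was picked by these same values, so this p repeats the choice and adds no support. Its input coverage was 65.5, 36.6, 35.3, 41.7 and 44.2, and its IP coverage 20.7, 1.63, 1.04, 0.831 and 2.80. The exon was thus well covered in each input and nearly empty in 4 of the 5 IPs. Its input was 3.51 of that of its gene, and a high input by itself lowers the winscore. Its neighbours on both sides were low as well, with mean winscores of −4.28 and −3.71.

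The next was exon 2 of L1td1, an RNA-binding protein of pluripotent cells derived from a LINE-1 element. Its values were −2.57 in the first pair, −4.38 and −4.26 in WT and −5.39 and −4.86 in KO (limma adjusted p = 0.000623, which likewise repeats the choice). Exon 5 of Psmd7, a subunit of the proteasome lid, had −1.62, then −3.73 and −4.59, then −5.83 and −5.20. Exon 4 of Snrnp70, the U1 snRNP protein, had −1.36, then −3.11 and −4.68, then −5.29 and −6.39. In both of these the KO values were below the WT values, in Ubl5 they were above them, and no such difference passed the test given below. Ankrd11 exon 2 followed at a mean of −3.73, Fbxo22 exon 5 at −3.67, Taf5l exon 3 at −3.63 and Txnl4a exon 2 at −3.58. The input of the Txnl4a exon was 3.43 of that of its gene. The IP was 0 in WT 2 and both KO pairs for Ankrd11, in KO 1 for Fbxo22 and in WT 2 for Taf5l. Ankrd11 and Taf5l are chromatin-associated regulators, Fbxo22 is a subunit of a ubiquitin ligase and Txnl4a belongs to the U5 snRNP. In all 8 exons the first pair had the weakest value.

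Enriched exceptions were few. A winscore of at least 2 in each of the 5 pairs, that is at least 4-fold over the gene's median window, was found in 28 of the 38541 short internal exons with input coverage of at least 5 (0.0726%). These 28 lay in 26 genes. At an input coverage of at least 1 there were 44 (0.0580%, against 0.749% of all exons). Over all exons with that coverage of 5, 1.06% met the same mark, among them 271 of 6075 long internal exons (4.46%) and 264 of 7760 outer exons (3.40%). The share of short internal exons was thus below that background, and no test was run on these counts. The first pair decided most of this count: at least 2 in the 4 WT and KO pairs was reached by 463 exons (1.20%, against 3.47% of all exons). Their median in the first pair was 1.02, and 438 of them were above 0 there. On the scale of the gene's mean signal, 27 of the 28 were above 0 in every pair, and 2 stayed at 2 or more in every pair, Ppp2r5a exon 12 and Rcn2 exon 2.

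**Figure D5:**
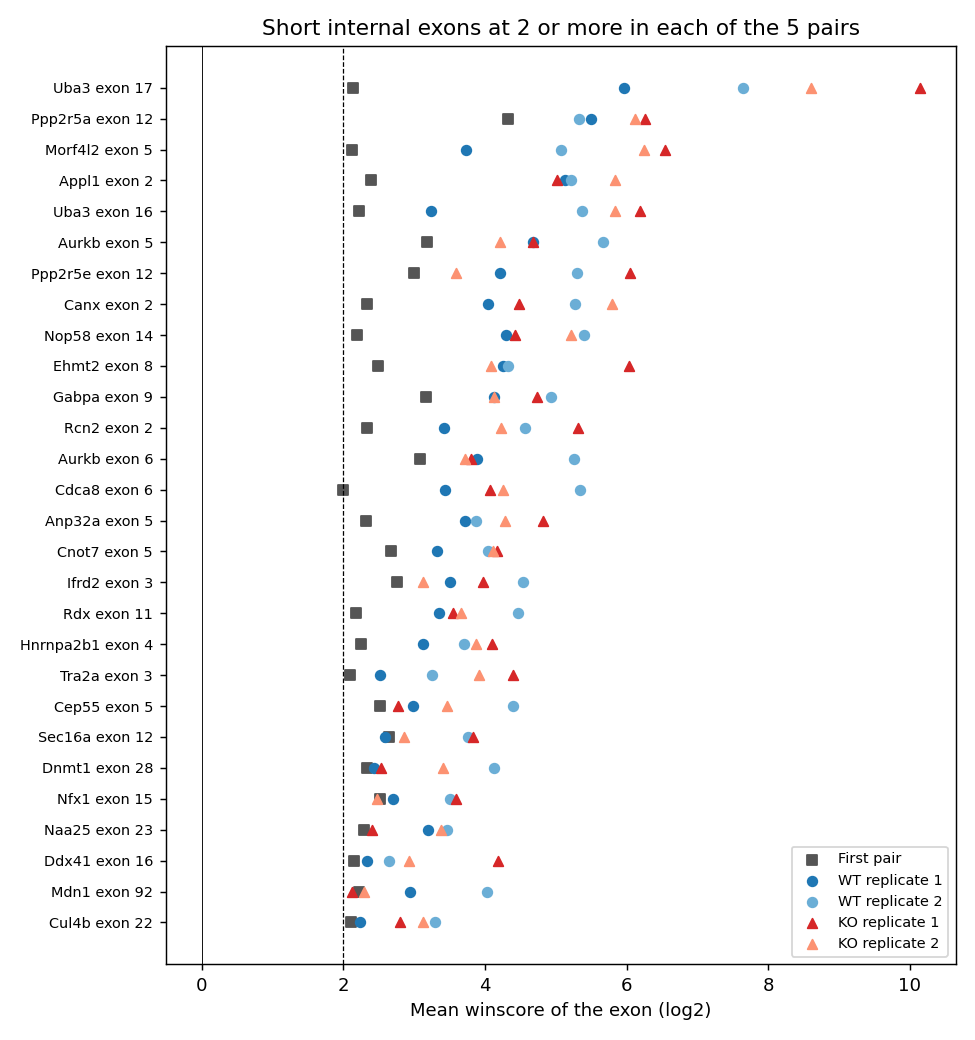
Each row is 1 of the 28 short internal exons with a winscore of at least 2 (dashed line) in all 5 pairs, ordered by their mean, and each symbol is the mean winscore of the exon in 1 pair. The first pair gives the lowest value in 25 rows, WT and KO symbols overlap in most rows, and Uba3 exon 17 reaches 10.1 in KO 1.

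The exception with the highest value in the first pair encodes a phosphatase subunit. Exon 12 of Ppp2r5a, a regulatory B56 subunit of protein phosphatase 2A, had a winscore of 4.32 in the first pair, 5.50 and 5.33 in WT and 6.25 and 6.12 in KO (mean 5.51 ± 0.325 SE, limma adjusted p = 0.000376). The exon was picked by these same values, so this p repeats the choice and adds no support. Its IP coverage was 167, 383, 388, 350.3 and 511 against an input of 4.41, 23.0, 20.1, 16.5 and 20.01. High values thus stood in all 5 pairs, and the input of the exon was 1.37 of that of its gene. It is the second exon from the 5′ end, beside a 5′ outer exon of 17 windows with a mean of 1.41. A paralogous subunit gave another exception: Ppp2r5e exon 12 had 2.99, then 4.22 and 5.30, then 6.05 and 3.58, with genotypes that overlap.

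The highest mean belonged to Uba3, the catalytic subunit of the NEDD8-activating enzyme, and 2 of its exons qualified. Exon 17, a single window, had 2.13 in the first pair, 5.96 and 7.65 in WT and 10.1 and 8.61 in KO. Its input was low, at 1.81, 5.25, 6.80, 5.14 and 6.87, or 0.208 of the gene, while its IP was 4.13, 104, 145, 281 and 326. Exon 16, with an input of 0.846 of the gene, had 2.22, then 3.24 and 5.36, then 6.19 and 5.84. Both KO values exceeded both WT values in each of these exons, and the first pair was lowest. The 5′ outer exon beside them had a mean of 4.26, so high values ran over 3 consecutive exons at the 5′ end of the gene.

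Aurkb was the other gene with 2 exceptions. Exon 5 had 3.19 in the first pair, 4.68 and 5.67 in WT and 4.68 and 4.22 in KO. Exon 6 had 3.09, then 3.89 and 5.25, then 3.81 and 3.72. The lowest value of each lay in the first pair and the highest in WT 2. Cdca8, which encodes borealin of the same complex, had an exception in exon 6, with 2.00, then 3.44 and 5.33, then 4.07 and 4.25. Its value in the first pair was just at the mark.

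Among proteins of membranes and the endoplasmic reticulum, exon 2 of Canx, the chaperone calnexin, had 2.34 in the first pair, 4.04 and 5.27 in WT and 4.48 and 5.80 in KO. It lies next to a 3′ outer exon of 48 windows whose mean was 0.27, and the exon on its other side had 3.51. Exon 2 of Rcn2, a calcium-binding protein of the same compartment, had 2.33, then 3.41 and 4.56, then 5.31 and 4.22. Exon 2 of Appl1, an adaptor of early endosomes, had 2.39, then 5.13 and 5.21, then 5.02 and 5.83. In all of these WT and KO overlapped.

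Nuclear proteins made up the rest of the 12 highest. Exon 14 of Nop58, a core protein of box C/D snoRNPs, had 2.19 in the first pair, 4.29 and 5.40 in WT and 4.43 and 5.22 in KO. Exon 9 of Gabpa, an ETS transcription factor, had 3.16, then 4.12 and 4.93, then 4.74 and 4.13. Each is second from the 3′ end. Exon 8 of Ehmt2, the histone H3 lysine methyltransferase G9a, had 2.49, then 4.26 and 4.32, then 6.03 and 4.09, and lies in the interior of its gene, 8th of 28 exons. Exon 5 of Morf4l2, a chromatin protein with a close paralog, had 2.13, then 3.73 and 5.08, then 6.54 and 6.24. The input of this exon was 0.0921 of its gene, and the treatment of reads from close copies is not stated.

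The other 14 exceptions had means from 2.71 to 3.80. They lie in Anp32a, Cnot7, Ifrd2, Rdx, Hnrnpa2b1, Tra2a, Cep55, Sec16a, Dnmt1, Nfx1, Naa25, Ddx41, Mdn1 and Cul4b. Among them are a subunit of the CCR4-NOT deadenylase (Cnot7), RNA-binding proteins of splicing (Hnrnpa2b1, Tra2a), the maintenance DNA methyltransferase (Dnmt1) and a cullin (Cul4b). Hnrnpa2b1 exon 4 had 2.25 in the first pair, 3.13 and 3.70 in WT and 4.09 and 3.87 in KO. Exons 3, 5 and 6 of the gene were also above 1 in all 5 pairs. Cul4b exon 22 was the lowest of the 28, with 2.11, then 2.23 and 3.29, then 2.80 and 3.13.

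Features other than the winscore of the exon itself were read beside those of all short internal exons of that coverage, of which 31445 had a known strand. Of 22 exceptions with known strand, 12 (54.5%) had a neighbouring exon with a mean winscore of at least 2, against 8.85% of all. It was on the 5′ side in 10 and on the 3′ side in 4, against 5.31 and 3.87% of all. Neighbours are set against the same gene median as the exon itself, so these values are not independent of the choice. Both neighbours were under 1 in 3 exceptions, against 69.2% of all. Next to the 3′ outer exon lay 3 (13.6%, against 10.1% of all) and next to the 5′ outer exon 5 (22.7%, against 7.14%). The input of the exon was under 0.5 of its gene in 6 of the 28, against 9.44% of all. It was at least that of the gene in 6, against 38.9%, with a median of 0.800 against 0.898. The input is a term of the winscore, and a low input raises it, so these values are not independent of the choice either. By length 1 had 1 window, 8 had 2, 12 had 3 and 7 had 4, against 1.76, 29.9, 43.4 and 24.9% of all. No test was run on these counts. The gene's median IP was 0 in KO 1 for 7 of the 28, in WT 2 for 2 and in KO 2 for 2, so these winscores rest on the 1 added to each term. In genes with a median IP above 0 in all 5 pairs, 21 of 24175 short internal exons (0.0869%) met the mark, against 0.981% of all exons of such genes and that coverage.

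Exons picked on the first IP alone were then read in the other libraries. In the first IP 82 short internal exons (0.108% of 75810) reached a winscore of 2, with a median of 2.27. In WT their median was 2.44 and 3.11, in KO 2.77 and 3.07, and 65.9% were at 2 or more in both WT pairs (95% exact binomial interval 54.6 to 76.0%, covering counting error only). In both KO pairs 62.2% were (50.8 to 72.7%) and in all 4 pairs 53.7%. Both intervals take exons as independent, although exons of 1 gene share its median, and they do not cover the spread between libraries. Among short internal exons under 2 in the first IP, 1.06% were at 2 or more in both WT pairs and 2.51% in both KO pairs. The 534 long internal exons picked likewise were at 2 or more in both WT pairs in 86.1% and in both KO pairs in 77.2%. Over the 82 exons KO minus WT of the median was 0.15 (exact permutation p = 1), and it was −0.19 without WT 1 and −0.0054 without KO 2.

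The share of all short internal exons at 2 or more differed widely between libraries, at 0.108% in the first pair, 1.57 and 5.50% in WT, 9.78 and 7.13% in KO. The share of them in genes with a median IP of 0 was 0.986%, then 6.44 and 40.4%, then 63.2 and 44.2%. Both shares put the 5 pairs in the same order. In the 29562 exons of genes with a median IP above 0 in all 5 pairs the share at 2 or more was 0.183% in the first pair, 2.27 and 5.43% in WT, 11.1 and 6.39% in KO, and the order of the pairs was unchanged.

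Depletion of the class was weaker in both KO pairs than in both WT pairs, by an amount the design cannot call. The log2 ratio of shares was −2.10 ± 0.136 (SD, n = 2) in WT and −1.68 ± 0.041 (SD, n = 2) in KO, a difference of 0.42 (exact permutation p = 0.333, the smallest that 2 against 2 can give). The first pair, at −1.46, was less depleted than either. Long internal exons differed by 0.0014 (exact permutation p = 1) and outer exons by −0.058 (exact permutation p = 0.333). The median winscore of the class was higher in KO by 0.19 (exact permutation p = 0.333), and on the scale of the gene's mean signal KO minus WT gave −0.0014 (exact permutation p = 1). Krt8, a keratin among the markers of other cells, had an input coverage of 3.71 and 3.54 in the WT inputs but 10.4 and 10.4 in the KO inputs. The summed coverage of the 3 trophectoderm markers was 3.78 and 3.61 against 10.5 and 10.6. Cdx2, which defines trophectoderm, and Elf5 lay at 0.137 or below in these 4 inputs, and the part of the rise in Krt8 in the comparison was not tested.

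No short internal exon passed the test of KO against WT. With limma 0 were higher and 0 lower at an adjusted p of 0.05, as was 0% of all 110174 exons in either direction. The SE of a single exon's difference had a median of 0.60 on the log2 scale, and the lack of calls does not show that exons did not differ. Of 75810 exons, an unadjusted p under 0.05 was reached by 3757 that were higher and 1176 that were lower in KO (limma). On the scale of the gene's mean signal it was reached by 2945 and 3270 (limma), so the excess of higher values did not hold there. The share over all exons tested was not counted, and their median KO minus WT winscore was 0.17. These counts are therefore not read as changes of the class. Of the 28 exceptions 16 had a higher mean in KO and 12 a lower one. Both KO values were above both WT values in 9 and below in 3. These counts were not made over all short internal exons, so they are not read as a trait of the exceptions.

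The exons with the smallest p are given although none passed (limma adjusted p = 0.790 for each). On the higher side, exon 5 of Prdx1, a peroxiredoxin that removes hydrogen peroxide, had −0.55 in the first pair, 0.48 and 0.17 in WT and 2.16 and 2.27 in KO, over an input of 95.4 to 675. Exon 4 of Pex7, an import receptor of peroxisomes, had 0.081, then 0.50 and 0.54, then 3.99 and 4.43. Exon 12 of Tars, the threonyl-tRNA synthetase, had 0.038, then −0.83 and −1.01, then 2.81 and 2.42. The first pair lay below both WT values in Prdx1 and Pex7 and between WT and KO in Tars. Pask exon 2, Atad2 exon 26 and Epb4.1l4a exon 11 differed by 3.63, 4.13 and 3.46. The WT IP coverage was 0.746 and 0 in Pask and 0.0468 and 0 in Atad2, so the 1 added to each term weighs heavily there.

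On the lower side, exon 10 of Suz12, a core subunit of Polycomb repressive complex 2, had 0.014 in the first pair, 0.54 and 0.40 in WT and −2.06 and −1.87 in KO. Its IP coverage was 31.5, 7.76, 3.40, 0 and 0. Exon 6 of Nasp, a histone chaperone, had −1.09, then −1.995 and −2.85, then −4.46 and −5.01, over an input of 125 to 179.5. In Nasp all 5 values were below 0. Prcc exon 6, Nabp2 exon 5, Golga4 exon 11 and Ubxn2a exon 5 differed by −3.50, −2.93, −2.78 and −2.77. Their KO IP coverage was 0 and 0.286, 0.663 and 0.867, 0 and 0, and 0 and 0.658. The 1 added to each term thus weighs heavily in their KO values. WT and KO values do not overlap in any of these 12 exons, which were picked by their p.

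Gene lists of the pathway and the tissue held 2 exceptions among 1107 tested exons (0.181%), against 44 of 75810 (0.0580%) in the class. Over all 110174 exons tested 0.749% met the same mark. Calls in each list are read beside 18.2% above and 6.62% below over all exons tested, and 10.3% and 7.40% in the class. The exon junction complex and its partners had 217 short internal exons in 18 genes, of which 215 were tested, 22 (10.2%) were called above 0 and 22 (10.2%) below (limma) and none was an exception. Rbm8a, the Y14 core subunit, came closest: its exon 2 had 1.06 in the first pair, 2.28 and 3.30 in WT, 3.42 and 3.97 in KO. The list's log2 ratio of shares was −1.05, then −1.44 and −1.51, then −1.30 and −1.05, below 0 in every pair.

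The m6A writers, erasers and readers had 180 short internal exons in 20 genes, 176 tested, with 24 (13.6%) above, 27 (15.3%) below (limma) and the 1 exception in Hnrnpa2b1. Their ratio was −1.30 in the first pair, −1.27 and −1.51 in WT and −0.65 and −0.80 in KO. Hnrnpc exon 2, in an RNA-binding protein, had 1.06, then 1.08 and 1.16, then 1.21 and 2.01. The 6 short internal exons of Mettl3 had a median winscore of 0.065, then 0.12 and 0.77, then 0.71 and 1.17.

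Pluripotency genes had 209 short internal exons in 19 genes, 206 tested, with 28 (13.6%) above, 25 (12.1%) below (limma) and no exception. Tet1 exon 9, in a dioxygenase that oxidises methylcytosine, missed the mark in 1 library, with 2.39 in the first pair, 2.32 and 2.43 in WT and 1.88 and 2.79 in KO. Its input was 0.157 of that of the gene. Chd1 exon 24 had a mean of 2.20, Dnmt3a exon 8 of 2.19 and Tfcp2l1 exon 7 of 1.40. Dnmt3a exon 8 had a mean input coverage of only 1.09, or 0.167 of its gene, so the 1 added to each term weighs heavily there. The list's ratio was −1.43, then −2.84 and −3.05, then −2.72 and −2.43.

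Chromatin regulators had 528 short internal exons in 25 genes, 510 tested, with 43 (8.43%) above, 83 (16.3%) below (limma) and 1 exception, in Ehmt2. In Chd4, the ATPase of the NuRD complex, exons 4, 34 and 35 were above 1 in all 5 pairs, with means of 3.001, 2.64 and 1.43. In Smarca4, the BRG1 ATPase, exons 11 and 32 were, with means of 1.57 and 2.25. The mean input coverage of Smarca4 exon 11 was low, at 2.84, or 0.160 of its gene. The list's ratio was −1.92, then −2.60 and −2.77, then −2.42 and −2.31. The median of the mean winscore in the 4 lists lay between −0.19 and 0.14, against 0.13 over all 75810 short internal exons and 0.23 over all 110174 exons tested. All 4 lists, which hold only short internal exons, had a larger share called below than the class and than all exons tested. Their share called above was smaller than over all exons tested. Against the 10.3% of the class it was larger in the m6A and pluripotency lists (13.6% each). It was smaller in the exon junction complex (10.2%) and chromatin (8.43%) lists. No test was run on these shares.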

How the data were processed

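m6A IP and input libraries of 5 pairs were compared. Reads were aligned with TopHat 1.1.3 to mm9, per the submitters' processing notes. The gene model, read filters, strand handling and treatment of reads from close copies are unstated in the sources, so overlapping genes and close copies are uncertain. Per window the deposited files hold coverage, a signal scaled by the authors with an unstated factor per library, and a log2 winscore, per the file headers. The winscore was recomputed within 5e-14 in all 1510223 windows, with 1 as pseudocount. The authors' RPKM values, per the file headers, served only to choose genes and check markers, from the 2 WT input columns. The other 3 columns were not used.

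Shares are summed coverage of a class over that of the same 8443 genes. Exon values are means over windows. Exact permutation tests ran over pairs or libraries. limma 3.58.1 (R 4.3.3, lmFit, eBayes with trend on log2 input coverage + 0.1, Benjamini-Hochberg) ran over 110174 exons with mean input coverage of at least 1, for the 5 pairs against 0 and for KO against WT without the first pair. The fits were tested on simulated data. Strand came from RefSeq (GRCm38.p6) by symbol, window width from RefSeq lengths, and no coordinates or sequences were used. Other tools were Python 3.11.15, pandas 2.3.3, numpy 2.4.6, scipy 1.17.1 and matplotlib 3.10.9.

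Exons, lists and tests were chosen with earlier results of these data known. Named exons were, 1 per gene, the 12 highest exceptions, the 8 lowest depleted exons negative in all pairs, and the 6 smallest p in each KO direction, all at input coverage of at least 5. Genes with several exceptions, exceptions of the fixed lists and list exons above 1 in all pairs were also named, and the remaining exceptions were listed after their values were seen.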

Additional observations from a re-analysis of the deposited data

How the results depend on the processing

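The log2 ratio of IP share to input share of short internal exons stayed below 0 under each alternative tried, from −1.93 without the 100 genes of highest input to −1.62 as a median over genes, and from −1.89 to −1.70 with a library left out. Both within-gene differences stayed negative under each alternative, and the KO minus WT difference of the summed share ratio stayed between 0.33 and 0.52. That range leaves out the median over genes, where WT and KO overlapped. With p-values that cannot fall below the threshold these tests say nothing of stability.

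The counts called above and below 0 were not stable. Called above were 3312 exons in genes with a median IP above 0 in all pairs (11.2% of the short internal exons tested there, against 20.9% of all exons tested there), 29752 by the highest window (39.2 against 50.6%), 1584 on the gene mean scale (2.09 against 7.59%), 3936 at input coverage of at least 5 (10.2 against 19.1%) and 3513 without a minimum (4.12 against 5.92%), and 2968 to 8930 with a library left out (3.92 to 11.8 against 9.83 to 19.4%). With the filter on the gene's median IP and at input coverage of at least 5, the number of exons tested fell and the share called above did not move by over 1.5 times. Called below were 2313 by the highest window (3.05 against 2.60%), 47626 on the gene mean scale (62.8 against 53.5%), 2166 without a minimum (2.54 against 1.32%), 9162 after centring (12.1 against 10.8%), and 2301 to 5821 with a library left out (3.04 to 7.68 against 2.77 to 6.77%).

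The 28 exceptions became 21 in genes with a median IP above 0 in all pairs (0.0869%, against 0.981% of all exons). Without exons next to the outer exons they were 18 (0.0565 against 1.06%). By the highest window there were 71 (0.184 against 8.56%), and on the gene mean scale 2 (0.00519 against 0.109%). At input coverage of at least 1 there were 44 (0.0580 against 0.749%), and also with no minimum (0.0516 against 0.366%). A threshold of 1 gave 471 (1.22 against 5.01%) and of 3 gave 4 (0.0104 against 0.188%). Leaving out a library gave 28 to 463, the 463 without the first pair (1.20 against 3.47%).

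Of exons picked on the first IP, 54.0% were at 2 or more in both WT pairs by the highest window. At a threshold of 1 the share was 42.5%, and on the gene mean scale 38.9% (7 of 18 exons). In both KO pairs 44.4% were at a threshold of 1, 72.7% at 3 (8 of 11 exons) and 33.3% on the gene mean scale (6 of 18). With 1 library of a genotype left out, the share is that of the remaining library alone. It was 68.3 to 76.8% of these exons in WT and 67.1 to 78.0% of them in KO. The KO minus WT median of the exons picked on the first IP ran from −0.19 without WT replicate 1 to 0.48 with a library left out, and was −0.0054 without KO replicate 2. The KO minus WT median over all short internal exons was −0.0014 on the gene mean scale and 0.087 to 0.29 with a library left out, where the lone library of a genotype is assumed to vary like the others. With the replicate block it was 0.19, and the limma fit with the block called 0 exons. At an unadjusted p under 0.05 that fit had 3947 of 75810 higher and 1071 lower, with no such count over all exons. The numbers do not pair the samples: deviations of same-numbered libraries correlated at 0.011. Alternatives other than the replicate block that bear on the exceptions and on the KO difference of shares were chosen after seeing the data. Empty IP windows limit what the WT 2 and KO libraries can show for single exons.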
